A study of Mus musculus with 12 samples.

Results

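The claudins are the membrane proteins that form the strands of tight junctions, and 10 of them were followed here across cartilage explants that were untreated, treated with IL-1α or treated with retinoic acid. The members were Cldn1, Cldn2, Cldn3, Cldn4, Cldn5, Cldn7, Cldn10, Cldn11, Cldn12 and Cldn15, taken by gene symbol with every probe that carries one of these symbols, which gave 16 of the 46632 probes on the array and 10 of its 34509 symbols. Cldn10 had 5 probes by its symbol. Cldn10 was chosen by its higher intensity with retinoic acid in these same arrays, so the comparisons of retinoic acid with the other treatments are given for the claudins as descriptions without a test, and so are all treatment comparisons of Cldn10.

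All explants were femoral head cartilage of 21-day-old TS-4/5∆cat mice, which carry in-frame deletions of the exons for the catalytic domains of Adamts4 and Adamts5 in every cell, so that the untreated arrays share these deletions with the treated ones. Culture lasted 3 days, either untreated, in 10 ng/mL of the cytokine IL-1α, which drives cartilage breakdown, or in 10 µM retinoic acid, which acts through nuclear receptors that bind DNA. RNA was read on 12 Illumina bead arrays, 4 for each treatment, of which 2 came from the line labelled Donut (batch 1) and 2 from the line labelled Gertrude (batch 2). Line and batch therefore cannot be told apart. The labels place 4 hips in a well with serum before treatment, whereas the study's methods describe serum-free culture and unpooled mice, so the number of animals behind an array is not settled. The p-values measure only the spread between these arrays, which may be technical.

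Claudins have 4 membrane-spanning segments and meet their partners on the neighbouring cell to seal the space between cells. Some of them tighten this seal and others form channels in it that let selected ions through. Their usual place is an epithelium or an endothelium, whereas chondrocytes lie singly in their matrix and are not known for tight junctions. Inside the cell most claudins end in a motif that holds scaffold proteins such as the zonula occludens proteins.

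The arrays read 13786 to 14965 probes above background in batch 1 and 16732 to 19485 in batch 2. The untreated replicate 2 array of batch 2 stood apart with its 19485 detected probes, where the next highest array had 17212, and values without it are given where they bear on a result. Of the chondrocyte markers, 11 of 12 were kept, and Comp, Prg4 and Col2a1 had the highest means. Matn3 was undetected on all 12 arrays. Some markers of other tissues were also read, among them Ibsp, Col1a1 and Sp7 of bone, Hbb-b1, S100a8 and Cd68 of blood and Tnnt3 and Acta1 of muscle. The lists were not read evenly. Of 7 muscle genes on the array 2 were kept, with Acta1 detected on 4 arrays, and 4 were undetected on all 12. Of 9 blood genes on the array 7 were kept and 2 were undetected on all 12, and of 7 bone genes 6 were kept. The treatments were visible in Cyp26a1, a retinoic acid-breaking enzyme detected on 4 arrays with a mean log2 intensity of 9.39 with retinoic acid, in Rarb, a retinoic acid receptor with 7.66, and in Nos2, detected on 4 arrays with 8.93 with IL-1α.

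To be kept, a probe needed 4 or more arrays with a detection p below 0.05, and 9 of the 16 claudin probes passed, for 6 of the 10 genes. These were Cldn1, Cldn2, Cldn5, Cldn11 and Cldn12 with 1 probe each and Cldn10 with 4. The values below are log2 intensities after background correction and quantile normalization, and the lowest detected signal of an array lay between 4.86 and 5.48 on this scale. Cldn11 was detected on the 4 retinoic acid arrays alone, and Cldn2 on 3 of them and 1 untreated array, so both passed mainly through the group in which they were high. Cldn3 and Cldn7 were undetected on all 12 arrays, Cldn4 was detected on 1 and Cldn15 on 2. All 10 genes are therefore accounted for, and no difference is given for the 4 genes that were not kept.

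Cldn10 forms ion channels between cells, and its alternative first exons give isoforms that differ in whether they pass anions or cations. On 3 of its probes it was lowest with IL-1α, intermediate without treatment and highest with retinoic acid on every array. The 4 values of a treatment are given throughout with both batch 1 arrays before both batch 2 arrays. Probe ILMN_2515816 was at 9.15, 9.36, 9.43 and 9.54 without treatment. With IL-1α it was at 6.69, 6.87, 6.75 and 7.12. With retinoic acid it was at 10.74, 10.77, 11.62 and 11.66. No 2 treatments overlapped, and both retinoic acid arrays of batch 2 were above both of batch 1. Retinoic acid stood 1.83 above untreated on the log2 scale (standard error 0.16), or 3.55-fold, IL-1α stood at -2.51 (standard error 0.16), and retinoic acid exceeded IL-1α by 4.34, or 20.2-fold. Without the untreated replicate 2 array of batch 2 the first of these was 1.77 and the second was -2.59.

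Probe ILMN_1214954 read 8.19, 8.19, 8.003 and 8.16 without treatment, 6.18, 6.10, 5.81 and 5.30 with IL-1α, and 9.80, 9.78, 10.31 and 10.30 with retinoic acid. Its log2 differences were 1.91 for retinoic acid over untreated and -2.29 for IL-1α against untreated (standard error 0.20 for each). Probe ILMN_2723576 read 7.08, 7.37, 7.86 and 7.55 without treatment, 5.11, 5.29, 5.37 and 5.28 with IL-1α, and 9.32, 9.43, 10.04 and 10.40 with retinoic acid. Here too the 3 treatments were fully separated, and with IL-1α the probe was detected on only 2 of 4 arrays. Its log2 differences were 2.33 and -2.20 (standard error 0.16 for each). Over the 12 arrays these 3 probes moved together, with Pearson correlations between 0.98 and 0.99 as a description over arrays that share their treatments.

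**Figure D1:**
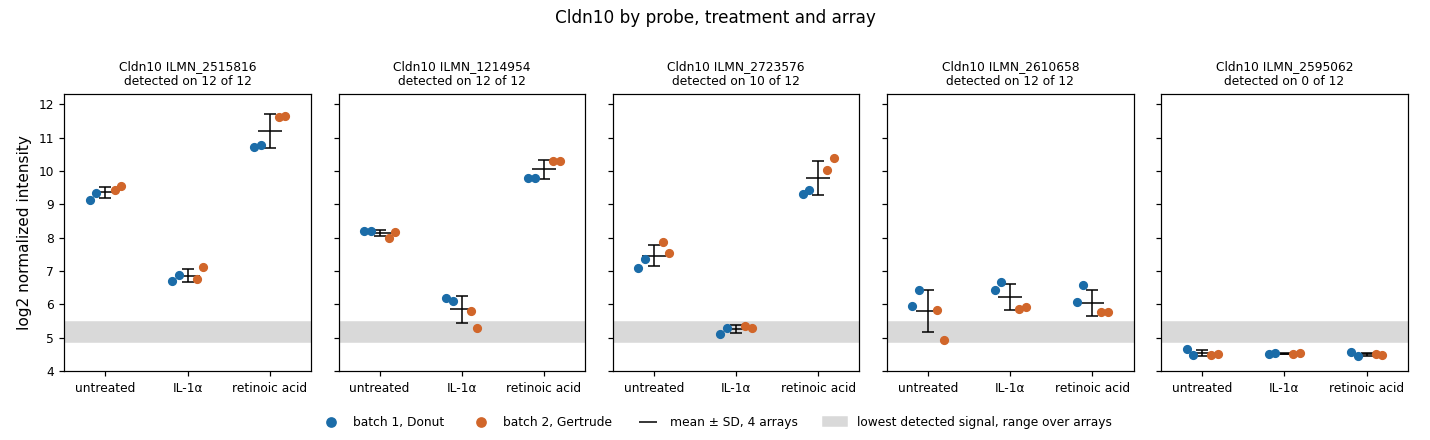
Log2 normalized intensity of the 5 Cldn10 probes on each of the 12 arrays, by treatment on the horizontal axis, with points coloured by batch, bars for the mean ± SD of 4 arrays and a grey band for the range over arrays of the lowest detected signal. On 3 probes the IL-1α arrays lie below and the retinoic acid arrays above the untreated arrays, on ILMN_2610658 the treatments overlap, and ILMN_2595062 was detected on 0 of 12 arrays.

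The other 2 Cldn10 probes did not show this order. Probe ILMN_2610658 was detected on all 12 arrays and read 5.95, 6.44, 5.84 and 4.92 without treatment, 6.44, 6.67, 5.87 and 5.92 with IL-1α, and 6.06, 6.57, 5.77 and 5.77 with retinoic acid. The treatments overlapped on it, and its log2 differences were 0.25 for retinoic acid and 0.44 for IL-1α over untreated (standard error 0.16 for each). The lowest of its 12 readings, 4.92, was on the untreated array that stands apart, and without that array the differences were 0.06 and 0.24. Its correlations with the 3 responding probes were between -0.17 and -0.27. Probe ILMN_2595062 was undetected on all 12 arrays. Which part of the transcript each probe reads is not given in the sources used here.

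The RefSeq annotation of GRCm38.p6 places Cldn10 on the plus strand at chr14:118787871-118874525 with 6 protein-coding transcripts, and gives it 2 promoter windows whose start sites lie 67079 bases apart. Both windows are shown because the isoforms of Cldn10 begin at different first exons. Each runs from 250 bases before a start site to 50 bases after it, and capitals mark GGGCGG, the core of a GC box that Sp1 factors bind.
Cldn10 upstream start, chr14:118787621-118787920, plus strand: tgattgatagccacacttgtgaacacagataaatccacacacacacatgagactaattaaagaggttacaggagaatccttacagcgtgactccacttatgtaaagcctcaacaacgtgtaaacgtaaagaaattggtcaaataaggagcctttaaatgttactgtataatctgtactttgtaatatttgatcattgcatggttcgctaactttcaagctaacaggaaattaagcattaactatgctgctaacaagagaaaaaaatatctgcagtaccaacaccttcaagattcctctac
Cldn10 downstream start, chr14:118854700-118854999, plus strand: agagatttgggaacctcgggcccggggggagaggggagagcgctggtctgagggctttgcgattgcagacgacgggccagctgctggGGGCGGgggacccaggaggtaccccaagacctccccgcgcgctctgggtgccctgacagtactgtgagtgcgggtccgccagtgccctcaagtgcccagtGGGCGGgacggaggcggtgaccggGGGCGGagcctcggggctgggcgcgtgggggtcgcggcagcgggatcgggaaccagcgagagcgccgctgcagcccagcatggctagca
The upstream window had a GC content of 36.0% and none of the motifs searched. The downstream window had a GC content of 72.0% and 3 copies of GGGCGG. The motifs searched on both strands were AGGTCA, a single site for nuclear receptors, the direct repeat of such sites with a spacer of 5 bases, whose copies overlap the single site, GGGCGG, and the TATA box TATAAA. Among all 32851 windows of 300 bases, 16.3% held AGGTCA, 0.1% held the direct repeat, 35.7% held GGGCGG and 13.6% held TATAAA. All 10 members had a window, 14 in total, of which 10 windows held GGGCGG, 1 held TATAAA and 4 held AGGTCA, those of Cldn4, Cldn7 and Cldn15. The direct repeat was in none of them. A match in these letters is a description of the window and not a binding site.

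Chondrocyte markers were read beside Cldn10, which was lower with IL-1α and higher with retinoic acid. Of the 11 kept, 11 were lower with retinoic acid than without treatment and 8 with IL-1α by limma at an adjusted p under 0.05, where 18.1% and 15% of all 14317 genes were lower. Comp, Col2a1 and Prg4 were not called with IL-1α, with log2 differences of -0.29, -0.20 and -0.0034. The summed normalized intensity of the whole chondrocyte list was 79170 to 91410 untreated, 50370 to 63720 with IL-1α and 19710 to 26130 with retinoic acid. In a bulk sample such as this, fewer cells of a type and less RNA per cell cannot be told apart. The genes whose pattern was most like that of ILMN_2515816, by Pearson correlation over the 12 arrays after the mean of each batch and replicate was subtracted, were C1qc (r = 0.9962), Itih2 (0.9944), Cygb (0.9934), Tmem100 (0.9933) and Tnfrsf19 (0.9926). C1qc encodes a chain of complement C1q, Itih2 a heavy chain that is attached to hyaluronan, Cygb cytoglobin, Tmem100 a membrane protein and Tnfrsf19 a receptor of the tumour necrosis factor family. C1qc had mean log2 intensities of 6.05 with IL-1α, 8.13 untreated and 9.33 with retinoic acid, so it shared the order of Cldn10 with a smaller span. Cygb was undetected on all 4 IL-1α arrays and detected on all 8 others.

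The other channel formers were at or near the background. Cldn2, which lets cations and water through, read 4.498, 4.44, 4.63 and 4.92 without treatment, 4.49, 4.48, 4.42 and 4.54 with IL-1α, and 4.86, 5.58, 5.83 and 5.61 with retinoic acid. It was undetected with IL-1α, and the highest untreated array, which is the one that stands apart, lay just above the lowest retinoic acid array. The retinoic acid mean was 1.16-fold above the lowest detected signal on the IL-1α arrays. This is not a firm lower bound, since the mean holds the undetected reading of 4.86. In batch 1 the retinoic acid mean of 5.22 lay below the lowest detected signals of the IL-1α arrays, 5.48 and 5.45. No bound is given over untreated, where 1 of 4 arrays detected it. The fitted log2 difference from untreated was 0.85 (standard error 0.16) and 0.43 with an offset of 50, and its size depends on the background since the untreated mean of 4.62 lay below the lowest detected signal. The second Cldn2 probe, ILMN_2691186, was undetected throughout. IL-1α and untreated Cldn2 did not differ detectably (log2 difference -0.14, standard error 0.16, adjusted p = 0.537 from limma), and both were near the background. Cldn15, a cation channel of the gut, had 2 probes, of which one was detected on 2 arrays and the other on 0.

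Cldn11, the claudin of myelin and of the Sertoli cell barrier, was detected on the retinoic acid arrays and on no other array. It was at 7.39, 7.50, 6.38 and 6.30 with retinoic acid. Without treatment it read 4.89, 4.65, 4.64 and 4.67, and with IL-1α 4.62, 5.03, 4.47 and 4.62, all undetected. The retinoic acid arrays therefore lay above all others. Their mean was 3.41-fold above the lowest detected signals of the untreated arrays and 3.11-fold above those of the IL-1α arrays. These are not firm lower bounds, since the size depends on the background. The fitted log2 difference from untreated was 2.18, and it was 1.36 with an offset of 50 and 1.58 without background correction. From IL-1α it was 2.21 as fitted, 1.37 with an offset of 50 and 1.67 without background correction. For IL-1α against untreated the log2 difference was -0.03 (standard error 0.19, adjusted p = 0.931 from limma), which compares 2 undetected groups. The gene lies at chr3:31149920-31164326 on the plus strand of GRCm38.p6, and its promoter window is shown because Cldn11 was read on the retinoic acid arrays alone, with the GGGCGG in capitals.
Cldn11 start, chr3:31149670-31149969, plus strand: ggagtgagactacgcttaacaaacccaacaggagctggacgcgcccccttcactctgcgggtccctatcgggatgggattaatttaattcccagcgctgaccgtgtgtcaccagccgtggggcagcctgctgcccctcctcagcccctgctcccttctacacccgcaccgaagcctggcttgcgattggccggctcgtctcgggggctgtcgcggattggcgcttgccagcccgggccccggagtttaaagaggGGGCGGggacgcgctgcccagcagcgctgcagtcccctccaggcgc
This window had a GC content of 66.3% and none of the other motifs searched. None of the myelin markers rose. Of 9 listed, 3 were kept, of which 2 were lower and 0 higher with retinoic acid than untreated by limma at an adjusted p under 0.05. The summed intensity of all 9, undetected genes included, was 226.1 to 351.5 with retinoic acid, 368.6 to 597.1 untreated and 344.9 to 508.1 with IL-1α. Mog, Mag, Mobp and Sox10 were undetected on all 12 arrays.

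**Figure D2:**
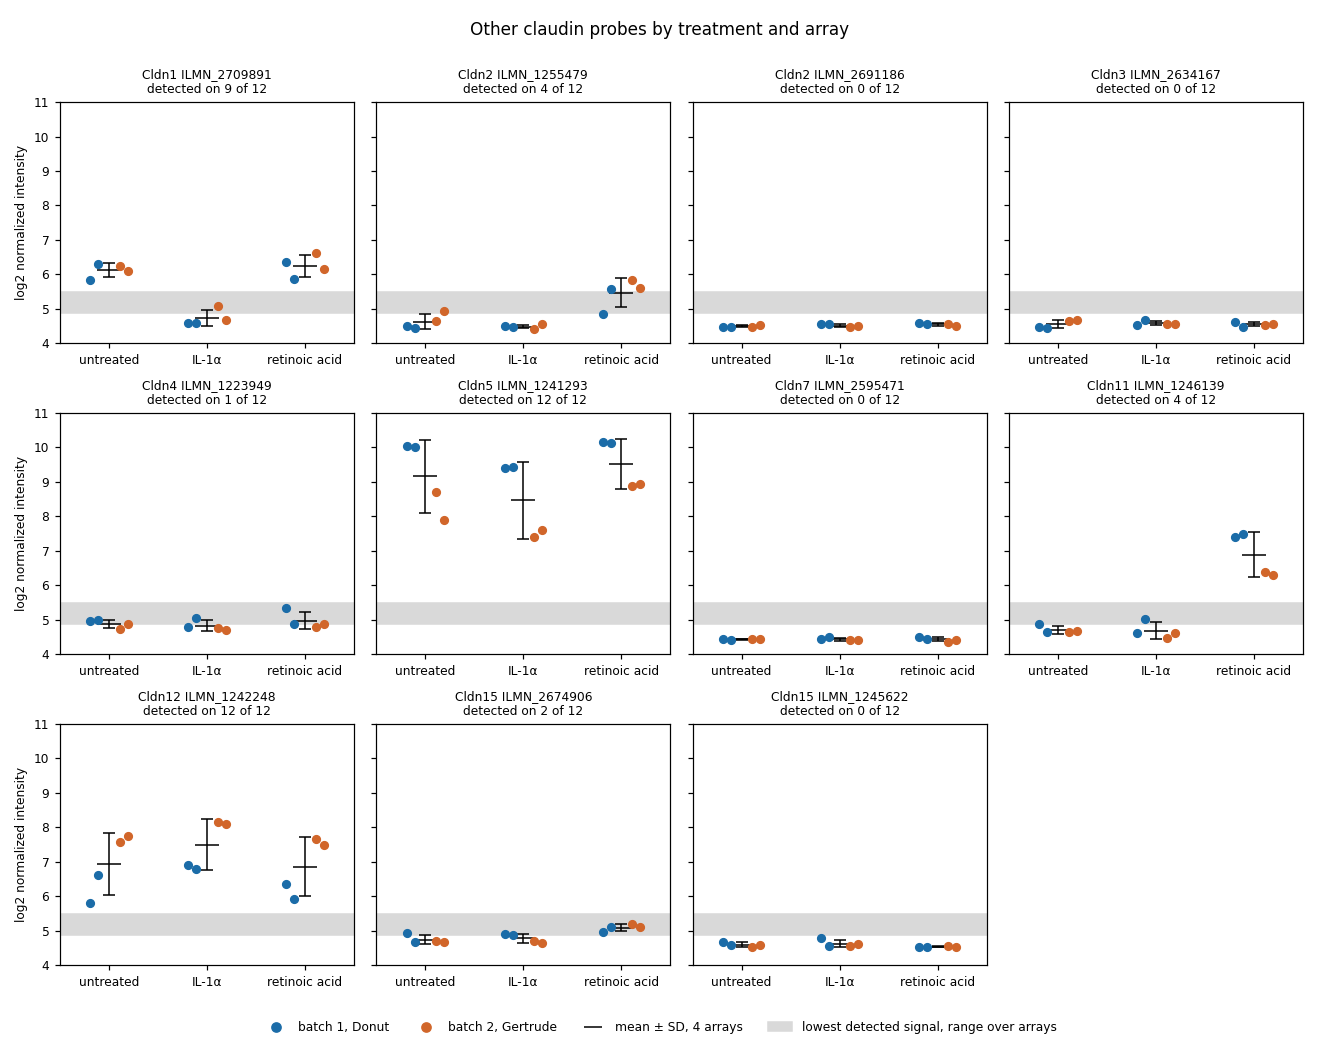
Log2 normalized intensity of the 11 probes of the other 9 claudins on each of the 12 arrays, by treatment, with points coloured by batch, bars for the mean ± SD of 4 arrays and a grey band for the range over arrays of the lowest detected signal. Cldn11 rises out of the band with retinoic acid alone, Cldn1 drops into it with IL-1α, and the points of Cldn5 and Cldn12 separate by batch.

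Cldn1, which seals the barrier of the skin, fell with IL-1α. It read 5.84, 6.30, 6.23 and 6.09 without treatment and 4.58, 4.57, 5.08 and 4.67 with IL-1α, where it was detected on 1 of 4 arrays. With retinoic acid it read 6.36, 5.87, 6.62 and 6.14. All IL-1α arrays were below all others, and the retinoic acid and untreated arrays overlapped. By limma IL-1α differed from untreated by -1.39 on the log2 scale (adjusted p = 1.98e-05, standard error 0.15). It was -1.49 in batch 1 and -1.29 in batch 2, and -0.77 with an offset of 50, and the IL-1α values lie near the background. On the log2 scale retinoic acid stood 1.52 above IL-1α and 0.13 above untreated (standard error 0.15 for each).

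The epithelial markers were mostly undetected. Of 12 listed, 11 were on the array and 4 were kept, and Epcam, Krt8, Krt19, Krt5, Krt14 and Grhl2 were undetected on all 12 arrays. None of the 4 kept was lower with IL-1α by limma at an adjusted p under 0.05. The summed intensity of all 11 on the array, undetected genes included, was 116.5 to 158 untreated, 106.5 to 173.8 with IL-1α and 253.1 to 294.7 with retinoic acid. Krt7 and Krt18, keratins of simple epithelia, were higher with retinoic acid than without treatment by 1.93 (adjusted p = 4.81e-06 from limma) and 0.65 (adjusted p = 0.00114 from limma) on the log2 scale. The claudins of simple epithelia, Cldn3, Cldn4 and Cldn7, stayed at the background with every treatment, with the exception of the untreated array that stands apart, on which Cldn4 was detected at 4.88.

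Cldn5, the claudin of the endothelial barrier, fell with IL-1α. Its untreated arrays were at 10.05, 10.01, 8.71 and 7.88, its IL-1α arrays at 9.41, 9.43, 7.40 and 7.61, and its retinoic acid arrays at 10.15, 10.13, 8.88 and 8.93. Within each batch both IL-1α arrays were below both untreated arrays, while over both batches the groups overlapped. By limma IL-1α differed from untreated by -0.70 on the log2 scale (adjusted p = 0.0109, standard error 0.18). Without the untreated replicate 2 array of batch 2 it was -0.89 (adjusted p = 0.00352 from limma). The call was lost with scaling to 1 median (adjusted p = 0.0854), without the detection filter (0.0663) and without batch in the model (0.708), all from limma. On the log2 scale retinoic acid stood 1.06 above IL-1α and 0.36 above untreated (standard error 0.18 for each).

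Endothelial markers were read beside Cldn5. Of 12 listed, 11 were kept, of which 6 fell and 0 rose with IL-1α by limma at an adjusted p under 0.05, where 15% of all genes fell and 15.1% rose, with Pecam1 at -1.23, Emcn at -1.04 and Egfl7 at -0.997 on the log2 scale. The 5 that were not called lay between -0.35 (Tie1) and 0.15 (Kdr). The summed intensity of the list was 3376 to 4043 untreated, 1611 to 2233 with IL-1α and 4086 to 4787 with retinoic acid. The IL-1α arrays were thus the lowest, as they were for Cldn5 within each batch. Their part in the Cldn5 result was not tested. Cldn5 itself stood at -1.63 in batch 2 against batch 1 on the log2 scale, and it was lower in batch 2 with every treatment. The sum of the list was 3942 to 4043 in batch 1 and 3376 to 3616 in batch 2 without treatment, 2107 to 2233 and 1611 to 1682 with IL-1α, and 4086 to 4214 and 4705 to 4787 with retinoic acid. With retinoic acid the sum was thus higher in batch 2, where Cldn5 was lower, but the genes of the list were split. Pecam1, Plvap, Eng, Kdr and Vwf were lower in batch 2 with retinoic acid, as Cldn5 was. Robo4, Emcn, Cdh5, Egfl7, Tie1 and Tek were higher.

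**Figure D3:**
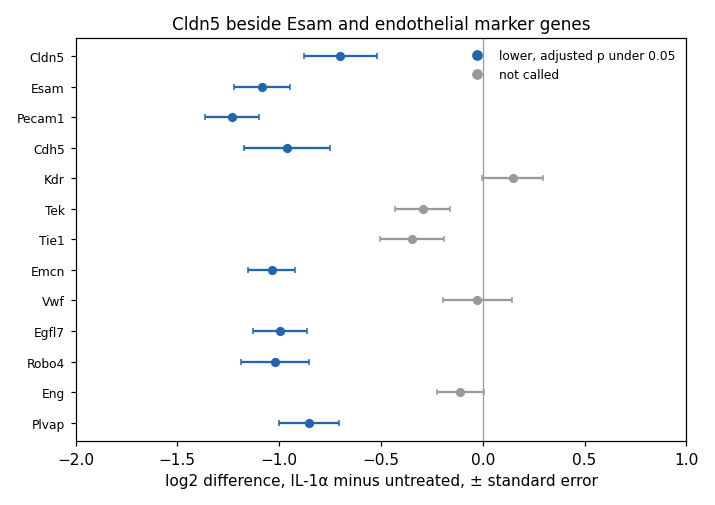
Log2 difference of IL-1α minus untreated (horizontal axis, bars for the standard error, 4 arrays against 4) for Cldn5, the adhesion molecule Esam and the 11 kept endothelial markers, in blue where limma's adjusted p is under 0.05. Cldn5 (-0.70), Esam (-1.08) and 6 markers lie to the left of 0, and 5 markers were not called.

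Cldn12, a claudin without the usual scaffold-binding end, was the only kept member for which IL-1α gave a higher value at an adjusted p under 0.05. Its untreated arrays were at 5.81, 6.62, 7.56 and 7.76, its IL-1α arrays at 6.90, 6.79, 8.15 and 8.10, and its retinoic acid arrays at 6.36, 5.92, 7.67 and 7.49. The IL-1α arrays were the highest within each batch, and over both batches the groups overlapped. By limma IL-1α differed from untreated by 0.55 on the log2 scale (adjusted p = 0.0282, standard error 0.17). The call rests on single arrays. The difference was 0.35 (adjusted p = 0.123 from limma) once replicate 1 of the batch 1 untreated arrays was left out, and the call was lost in 7 of 21 alternatives, among them without either IL-1α array of batch 1 (adjusted p of 0.0986 and 0.0613) or without the untreated replicate 1 array of batch 2 (0.0709). On the log2 scale retinoic acid stood at -0.08 against untreated and at -0.63 against IL-1α (standard error 0.17 for each).

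Of the 5 kept probes outside Cldn10, limma called 3 for IL-1α against untreated at an adjusted p under 0.05, Cldn1 and Cldn5 lower and Cldn12 higher, where 29.3% of all 18200 kept probes were called. The probes not called, Cldn2 and Cldn11, were kept mainly through their retinoic acid arrays. They were at or near the background in both groups and could hardly be called, so nothing is read from the share of 5. With the Cldn10 probes 6 of 9 were past this threshold, and the median log2 difference of the 9 was -0.70 where that of all kept probes was 0.02. For retinoic acid against untreated, 5 of 9 were past it where 35.4% of all probes were, and for retinoic acid against IL-1α 8 of 9 where 31.1% were. The counts over 9 probes hold the comparisons and probes behind the choice of Cldn10, and nothing is read from them. The comparisons share their control arrays. A further 10 claudin symbols were on the array with 12 probes, of which Cldn9, Cldn19 and Cldn23 had a kept probe and none was called in any of the 3 comparisons.

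**Figure D4:**
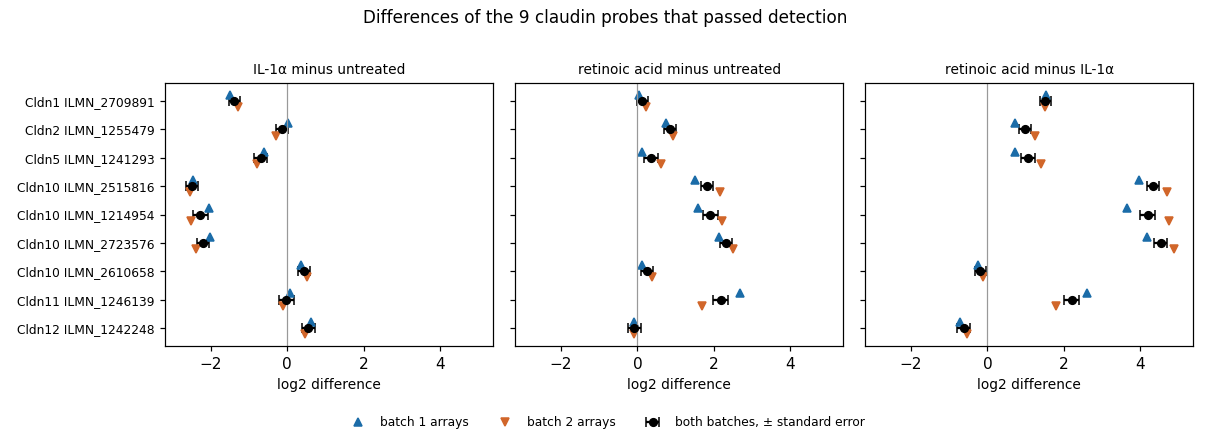
Log2 differences of the 9 kept claudin probes in the 3 comparisons, with black points for the fit over both batches (bars for the standard error) and triangles for the difference within batch 1 and within batch 2. The 3 responding Cldn10 probes lie between -2.51 and -2.20 for IL-1α and between 1.83 and 2.33 for retinoic acid, both against untreated, and between 4.20 and 4.54 for retinoic acid against IL-1α, where Cldn12 at -0.63 is the lowest.

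Batch 2 differed from batch 1 on 6 of 9 claudin probes at an adjusted p under 0.05 from limma, where 76.3% of all kept probes did. Cldn5 was lower in batch 2 by 1.63 on the log2 scale and Cldn12 higher by 1.39, which are the largest of the 9. Cldn11 stood at -0.50, and the Cldn10 probes at 0.43, -0.06, 0.48 and -0.67 in the order ILMN_2515816, ILMN_1214954, ILMN_2723576 and ILMN_2610658. The Cldn10 probes thus did not share 1 direction between the batches.

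The difference of a treatment effect between the batches was past an adjusted p of 0.05 from limma on 2 of 9 probes in at least 1 comparison, where 11.9% of all kept probes were. These were probes of Cldn10, chosen on its retinoic acid values, and of Cldn11, kept through its retinoic acid arrays, so the counts and the values that follow are descriptions and nothing is read from them. Taken singly, retinoic acid against untreated had 1 of 9 where 2.86% of all probes were called, IL-1α against untreated 0 of 9 where 4.82% were, and retinoic acid against IL-1α 2 of 9 where 8.76% were. The number of claudin probes called was 5 when replicate 1 or replicate 2 of the untreated arrays of batch 2 was left out, and 1 when any single retinoic acid array was. For Cldn10 ILMN_1214954, retinoic acid exceeded IL-1α by 3.65 in batch 1 and by 4.75 in batch 2, a difference of 1.098. The other 2 responding probes had a difference of 0.73 each. For Cldn11 the retinoic acid arrays of batch 1 were higher than those of batch 2, at 7.39 and 7.50 against 6.38 and 6.30. Both other treatments were undetected in both batches, so no difference of the effect is read.

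Partners of the claudins in the tight junction were read from a list of 37 genes, of which 36 were on the array, 22 were kept and 12 were undetected on all 12 arrays. Occludin (Ocln), tricellulin (Marveld2), F11r, Cgn and Tjp3 were among those undetected. With retinoic acid 9 rose and 4 fell against untreated by limma at an adjusted p under 0.05, where 18.6% of all 14317 genes rose and 18.1% fell. With IL-1α 4 rose and 3 fell, where 15.1% of all genes rose and 15% fell. Retinoic acid against IL-1α had 8 higher and 6 lower, where 16.1% and 16.4% of all genes were. The median log2 differences of the 22 genes were 0.20, 0.09 and -0.05 in this order.

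Among the adhesion proteins, Jam2 and Esam passed 2-fold. Jam2, a junctional adhesion molecule, had a log2 intensity of 8.70 ± 0.47 (SD, n = 4) untreated and 7.65 ± 0.17 (SD, n = 4) with retinoic acid, a difference of -1.05 (adjusted p = 1.63e-04 from limma). Its other kept probes had -0.79 and -0.05 in this comparison, so the probes disagree. Esam, an adhesion molecule of endothelial cells, was at 9.45 ± 0.20 (SD, n = 4) untreated and 8.36 ± 0.10 (SD, n = 4) with IL-1α, a difference of -1.08 (adjusted p = 9.99e-05 from limma). The part of the endothelial list in its change was not tested.

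The scaffold and polarity genes included the largest rises with retinoic acid. Amotl1, an angiomotin family protein, rose from 9.49 ± 0.21 (SD, n = 4) to 11.17 ± 0.17 (SD, n = 4), a log2 difference of 1.68 (adjusted p = 2.46e-07 from limma). Magi1, a scaffold of the same junctions, rose by 1.53, Patj by 1.24, Pard3 by 1.14 and Cgnl1, or paracingulin, by 1.08, each against untreated with adjusted p-values from limma of 6.50e-05, 2.53e-05, 8.00e-05 and 1.64e-04. The other kept probes of Patj had 0.04 and 0.18 and that of Pard3 had 0.32, none of them called, so those 2 genes rest on the brightest probe, whereas the second Amotl1 probe had 1.08. Prkcz, the atypical protein kinase C of the polarity complex, fell from 9.21 ± 0.39 (SD, n = 4) to 6.92 ± 0.56 (SD, n = 4) with retinoic acid, by 2.29 on the log2 scale (adjusted p = 2.61e-08 from limma), and by 0.62 with IL-1α. Its second probe stood at -2.50 and -1.57 in these comparisons, so the probes differ in size with IL-1α.

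With IL-1α the 2 partners past 2-fold upward were Ybx3 and Amotl2. Ybx3, a Y-box factor that binds zonula occludens protein, rose from 11.94 ± 0.39 (SD, n = 4) to 13.44 ± 0.11 (SD, n = 4), a log2 difference of 1.49 (adjusted p = 5.26e-06 from limma), and the highest value on any array was 14.24. Amotl2 rose from 6.30 ± 0.88 (SD, n = 4) to 7.31 ± 0.20 (SD, n = 4), a difference of 1.01 (adjusted p = 0.00539 from limma). The difference was 1.62 in batch 1 and 0.39 in batch 2, so it passed 2-fold in batch 1 alone, and the probe was detected on 10 of 12 arrays. Tjp1, a main scaffold of claudins, was not called in any of the 3 comparisons, with log2 differences from -0.12 to 0.09. It was detected on 6 of 12 arrays. Its mean of 4.63 in batch 1 lay below the lowest detected signal of that batch, 5.29, so these values are near the background.

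**Figure D5:**
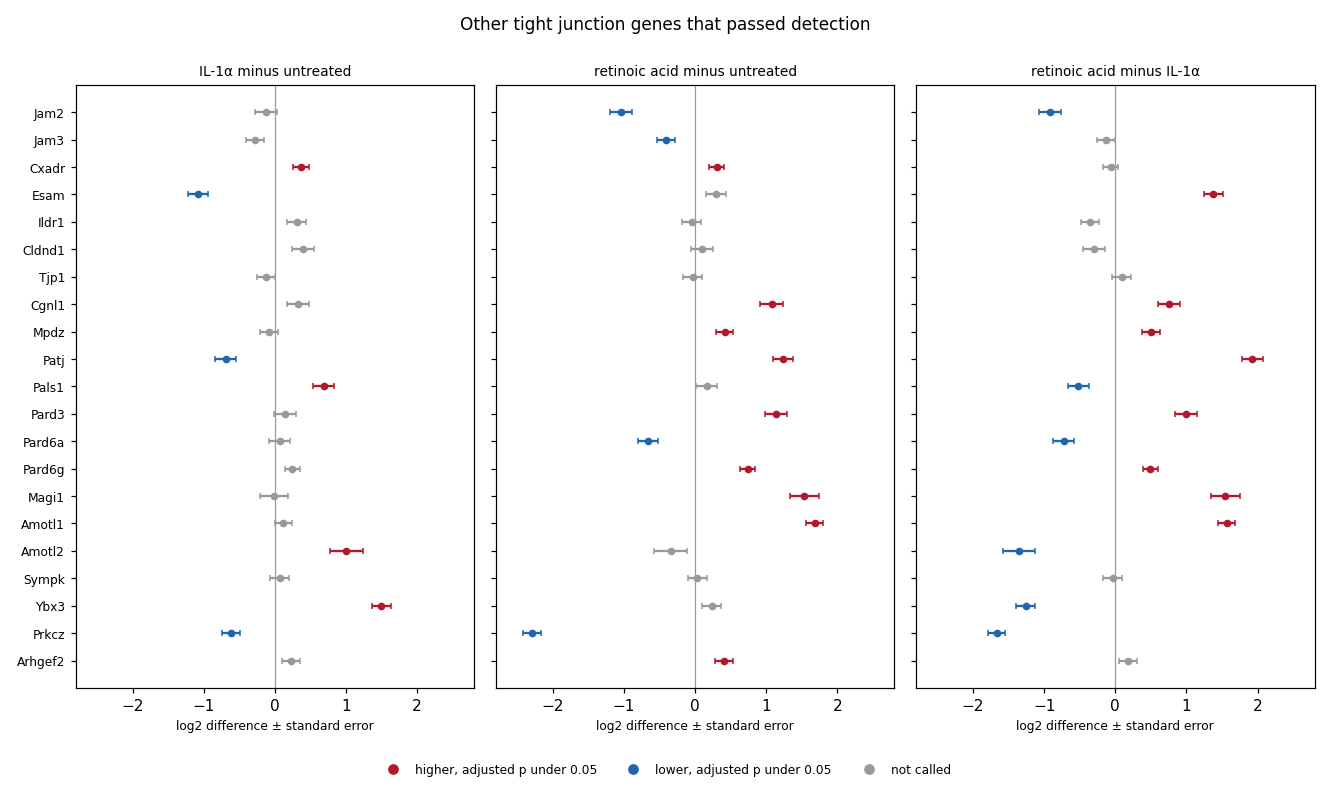
Log2 differences with standard errors of 21 of the 22 kept tight junction partners in the 3 comparisons, in red where higher and in blue where lower at an adjusted p under 0.05 from limma, and in grey otherwise. Amotl1, Magi1, Patj, Pard3 and Cgnl1 lie above 1 with retinoic acid against untreated, Prkcz at -2.29 is the lowest point, and Tjp1 stays grey throughout.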

How the data were processed

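Femoral head cartilage was measured on 12 Illumina bead arrays, grouped by treatment and batch from the labels. The authors deposited linear probe intensities, neither background-subtracted nor normalized, with a detection score that rises with intensity, and 1 minus this score was used as the detection p-value. Submitters' processing notes name limma, and the bead-summary software is not given in the sources used here. With R 4.3.3 and limma 3.58.1 the intensities were processed by neqc (offset 16) and probes needed 4 or more arrays with a detection p below 0.05. lmFit and eBayes used treatment and 4 batch-replicate blocks, with Benjamini-Hochberg adjustment over 18200 probes. Batch differences used treatment plus batch, and differences of effects used the treatment-by-batch groups without the block. The script was tested on simulated data. A gene with several probes was represented by its brightest kept one. Named genes were all member probes, partners past 2-fold, the 5 genes most like Cldn10 and up to 3 per marker list. Members and lists were chosen with earlier results of these data known. Promoter windows are RefSeq's for GRCm38.p6. The alternatives changed background, scaling, offset, filter and blocks, or left out an array. The number of arrays limits precision. A few genes of the marker and partner lists are not reported here.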

Additional observations from a re-analysis of the deposited data

Results flagged for a closer look

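On the untreated arrays of Cldn11, batch 1 replicate 1 read 4.89 on the log2 scale, far from the other 3 arrays. It was undetected there. Of 30 groups of 4 arrays examined, 1 had an array this far from the others. Chance gives about 1 in 20 for 4 like arrays, but each group here mixed both batches, so that rate need not hold. The number of detected probes was among the items examined, and the untreated array that stands apart on it was not flagged by this rule.

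Differences between the batches in the retinoic acid values drew attention on 2 probes and are descriptions. For Cldn11 the fitted value of batch 2 minus batch 1 was -0.99 for retinoic acid against untreated and -0.82 against IL-1α on the log2 scale, where both reference groups were undetected and Cldn11 was kept through its retinoic acid arrays. For Cldn10 probe ILMN_1214954, a gene chosen on its retinoic acid values, retinoic acid minus IL-1α was 1.098 more positive in batch 2.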

How the results depend on the processing

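No alternative reversed a difference that was called. For IL-1α against untreated outside Cldn10, 91 values of the 5 probes stayed on the same side of the threshold. A further 10 lost the call, those of Cldn5 and Cldn12 given with these genes. Of the 91, 19 were of Cldn2 and 20 of Cldn11, both kept mainly through their retinoic acid arrays. They were at or near the background in both groups, so they could hardly be called and nothing is read from them. Cldn11, which was never called in this comparison, changed direction between alternatives, with log2 differences from -0.21 to 0.11. The retinoic acid comparisons of the claudins carry no test, so counts of claudin probes past the threshold are given for them only as descriptions. Outside Cldn10, 104 values against untreated and 100 against IL-1α moved by less than the spread between arrays, and 7 and 11 moved by more. For Cldn10 ILMN_2515816 the log2 difference of retinoic acid from untreated was 2.06 with scaling to 1 median, 1.504 within batch 1 and 2.15 within batch 2. From IL-1α it was 4.09 without background correction, 4.53 with scaling to 1 median, 3.99 with an offset of 50, and 3.97 and 4.70 within the batches. With 1 array left out it ranged from 1.696 to 1.96 and from 4.21 to 4.46. With probes detected on all 12 arrays, where fewer claudin probes were fitted, 2 were past the threshold for retinoic acid against untreated and 4 against IL-1α. The 2 against untreated were Cldn10 probes, and the 4 against IL-1α were these with Cldn5 and Cldn12. Cldn10 was chosen on its retinoic acid values, so nothing is read from these counts. Without batch and replicate in the model, 5, 2 and 7 partners were called for retinoic acid and IL-1α against untreated and for retinoic acid against IL-1α, where the full model gave 13, 7 and 14. The cause was not tested.

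The number of claudin probes whose treatment effect differed between the batches was 4 with scaling to 1 median, 4 with an offset of 50, 1 without the filter and 1 with probes detected on all arrays. It ranged from 1 to 5 with 1 array left out, and was 5 when 1 untreated array of batch 2 was left out and 1 when 1 retinoic acid array was. With 1 array left out, the claudin probes past the threshold numbered 5 to 5, 5 to 7 and 7 to 8 for retinoic acid against untreated, IL-1α against untreated and retinoic acid against IL-1α. The called partners numbered 9 to 13, 6 to 8 and 13 to 16 in this order. The claudin counts hold the probes and comparisons behind the choice of Cldn10, and nothing is read from them. Scaling to 1 median moved the median of all probes from 0.02 to 0.14 for retinoic acid against untreated. The share of calls that were higher moved from 51.6% to 65.6%, and from 49% to 65.6% against IL-1α.

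Whether replicate numbers shared by the treatments pair the arrays is not settled. Correlations of same-numbered deviations ran from -0.11 to 0.39, with no reference spread to judge them by. Without the replicate block 5, 6 and 8 claudin probes were past the threshold and 12, 6 and 15 partners were called. With the replicate block added to the test between batches 3 claudin probes were past it. These claudin counts are descriptions too. The comparison of batches has no value within a batch or without batch. Signal near the background limits Cldn2, Cldn11, Cldn1 and Tjp1, and the IL-1α values of Cldn10 probes ILMN_2723576 and ILMN_1214954. With an offset of 50 the log2 differences of IL-1α from untreated were -1.54 and -1.77 on these probes and -2.21 on ILMN_2515816.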
